A study of Homo sapiens with 6 samples.

Results

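The genes NAMPT, PNP, KYNU, NAPRT and SIRT1 were followed in HK2, a human cell line of kidney proximal tubule epithelium. The first 4 encode enzymes that make or recycle NAD, and SIRT1 encodes a deacetylase that consumes it. They are 5 of 14884 genes that could be named in the series, and they were chosen because their array values differed between cells with an shRNA against PGC-1alpha and control cells, so their own differences are given as a description without a test. PGC-1alpha is a transcriptional coactivator of mitochondrial and oxidative genes. The shPGC-1alpha group held 3 arrays of HK2 cells transduced with lentivirus carrying the pLKO.1 vector for an shRNA against PGC-1alpha, and the shGFP group held 3 arrays of HK2 cells with the same vector for an shRNA against GFP, a protein the cells do not encode. Both groups went through puromycin selection, and total RNA was taken 5 days after transduction, 24 hours after puromycin was withdrawn. The labels name 1 construct per group, and they number the arrays as biological replicates without saying if each came from its own transduction. The p-values therefore rest on the spread among these arrays, which may be technical.

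NAD carries electrons in glycolysis, the tricarboxylic acid cycle and respiration, and its phosphorylated form NADP supports biosynthesis and antioxidant defence. Cells make NAD from tryptophan by the kynurenine route, from nicotinic acid by the Preiss-Handler route, and from nicotinamide by salvage. Sirtuins and poly(ADP-ribose) polymerases split NAD and release nicotinamide, which salvage returns to the pool. The proximal tubule has a high demand for oxidative metabolism, and SIRT1 is known to deacetylate PGC-1alpha.

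The values are log2 RMA (robust multi-array average) expression values, so a difference of 1 is a doubling, and they say nothing of how the level of one gene compares with that of another. PPARGC1A, the gene of PGC-1alpha, was not among the genes named here, so the knockdown itself was not analysed here. A gene is called measured if a probe set was named for it. Of 53617 probe sets 37519 had no gene name, so a gene not measured may still be on the array. Of 25 listed markers of the proximal tubule 9 were measured, and 7 of these averaged above 4.43, the 20th percentile of gene means, used here as a guide to dim signals. The scavenger receptors LRP2 and CUBN, which define the segment, averaged 4.001 and 3.90 in shPGC-1alpha cells, against 3.94 and 3.95 in shGFP cells, below that guide. Of the 9 markers 1 rose and 2 fell, with summed levels (the log2 of the sum of unlogged values) of 12.51 to 12.54 in shPGC-1alpha arrays, against 12.41 to 12.45 in shGFP arrays. Rose and fell mean a limma adjusted p below 0.05, which 9.58% of all genes met higher and 12.2% lower. The marker that rose was the kidney transcription factor PAX8, the brightest of the 9, at 11.82 in shPGC-1alpha cells, against 11.44 in shGFP cells. The higher sum follows PAX8 and runs against the surface enzymes DPP4 and MME, which fell. Their log2 differences were -0.27 (limma adjusted p 0.0255) and -0.61 (limma adjusted p 0.00113). Some marker sets of epithelium and of other cells differed between the groups, and others did not. Of 8 measured epithelial genes 1 rose (CLDN1) and 5 fell, with summed levels of 12.63 to 12.71 in shPGC-1alpha arrays, against 12.29 to 12.35 in shGFP arrays. The higher sum follows CLDN1, the brightest of them, at 12.04 in shPGC-1alpha cells, against 10.71 in shGFP cells. It runs against KRT18, KRT19, EPCAM, TJP1 and OCLN, which fell. The 2 measured fibroblast genes, DCN and LUM, both rose (sums of 9.29 to 9.46, against 8.59 to 8.64 in shGFP arrays), and of 3 leukocyte genes CD68 rose and CSF1R fell (sums of 11.47 to 11.58, against 11.19 to 11.25 in shGFP arrays). The leukocyte sum is mostly CD68, which averaged 11.49 in shPGC-1alpha cells, against 11.15 in shGFP cells. Of 4 endothelial genes 0 passed (0 also at an unadjusted p under 0.05, sums of 6.40 to 6.54, against 6.43 to 6.53 in shGFP arrays), and of 2 genes of other nephron segments 0 passed at either level (sums of 6.71 to 6.87, against 6.59 to 6.92 in shGFP arrays). Their part in the results below was not tested, and in bulk RNA fewer cells of a type cannot be told apart from less RNA per cell.

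NAMPT, PNP and KYNU were higher in every shPGC-1alpha array than in any shGFP array, whereas NAPRT and SIRT1 were lower in every shPGC-1alpha array. NAMPT encodes the first enzyme of nicotinamide salvage, and NAPRT the first enzyme of the nicotinic acid route. All 5 of the 5 genes had arrays that did not overlap between the groups, a count that the choice of genes fixes, and so did 38.7% of all 14884 genes. All 5 also passed an adjusted p of 0.05 in limma over all genes, again by choice, as did 21.8% of all genes, 9.58% higher and 12.2% lower. The balance over all genes depended on the scaling: it was 1426 higher and 1817 lower in the values as deposited, 1612 higher and 1708 lower under quantile normalisation, and turned to 1867 higher and 1440 lower under median centring.

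NAMPT (chromosome 7, 106248298 to 106285888, GRCh38.p14) encodes nicotinamide phosphoribosyltransferase, which catalyses the slow step of salvage by joining nicotinamide to phosphoribosyl pyrophosphate. The values of the brightest of its 3 probe sets were 11.23, 11.29 and 11.29 in shPGC-1alpha replicates 1, 2 and 3, against 10.48, 10.42 and 10.47 in shGFP replicates 1, 2 and 3. The groups lay far apart relative to their spread, with means of 11.27 ± 0.03 in shPGC-1alpha cells and 10.46 ± 0.03 in shGFP cells (SD, n = 3 each). The log2 difference was 0.81 (SE 0.06), or 1.76-fold higher, at the 98.7th percentile of the differences of all genes. This probe set may not lie on the gene: the annotation names it NAMPT without a position, but all 20 of the named probe sets numbered next to it belong to genes of chromosome 10, where RefSeq places the pseudogene NAMPTP1. For the second NAMPT probe set, all 20 such neighbours belong to genes of chromosome 7. Its log2 difference was 0.73, with an SE of 0.17 in a fit of all probe sets, in which the brightest had an SE of 0.07. Signal of the gene and of the pseudogene cannot be told apart in the brightest probe set, from which the NAMPT values come unless another is named.

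PNP (chromosome 14, 20469406 to 20477089) encodes purine nucleoside phosphorylase, which splits inosine and guanosine and can also split nicotinamide riboside to nicotinamide. It was measured at 8.79, 8.73 and 8.73 in shPGC-1alpha cells, against 8.15, 8.13 and 8.24 in shGFP cells. The 3 arrays of each group lay close together, and the log2 difference was 0.58 (SE 0.06), or 1.49-fold higher. KYNU (chromosome 2, 142877664 to 143055833) encodes kynureninase, the enzyme of the tryptophan route that releases hydroxyanthranilate from hydroxykynurenine. Its values were 6.04, 6.07 and 5.97 in shPGC-1alpha cells, against 5.57, 5.60 and 5.68 in shGFP cells. The difference of 0.41 (SE 0.07), or 1.33-fold higher, was the smallest of those of the 3 higher genes.

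NAPRT (chromosome 8, 143572874 to 143578330) encodes nicotinate phosphoribosyltransferase, which starts the Preiss-Handler route from nicotinic acid. Its values were 7.31, 7.27 and 7.38 in shPGC-1alpha cells, against 7.61, 7.55 and 7.61 in shGFP cells. The highest shPGC-1alpha array lay below the lowest shGFP array, and the log2 difference of -0.27 (SE 0.06), or 1.21-fold lower, was the smallest of the 5 in size. The count of lower genes past the threshold was 1 in place of 2 without shPGC-1alpha replicate 1, shPGC-1alpha replicate 2 or any 1 of the 3 shGFP arrays.

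SIRT1 (chromosome 10, 67884656 to 67918390) encodes a nuclear deacetylase that uses NAD as a cosubstrate and acts on histones, FOXO factors, p53 and PGC-1alpha. Its values were 8.02, 8.16 and 7.91 in shPGC-1alpha cells, against 8.72, 8.78 and 8.62 in shGFP cells. The spread was the widest of the 5 genes, with means of 8.03 ± 0.12 in shPGC-1alpha cells and 8.71 ± 0.08 in shGFP cells (SD, n = 3 each), and the groups still did not overlap. The log2 difference was -0.68 (SE 0.09), or 1.60-fold lower, at the 2.5th percentile of all genes.

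**Figure D1:**
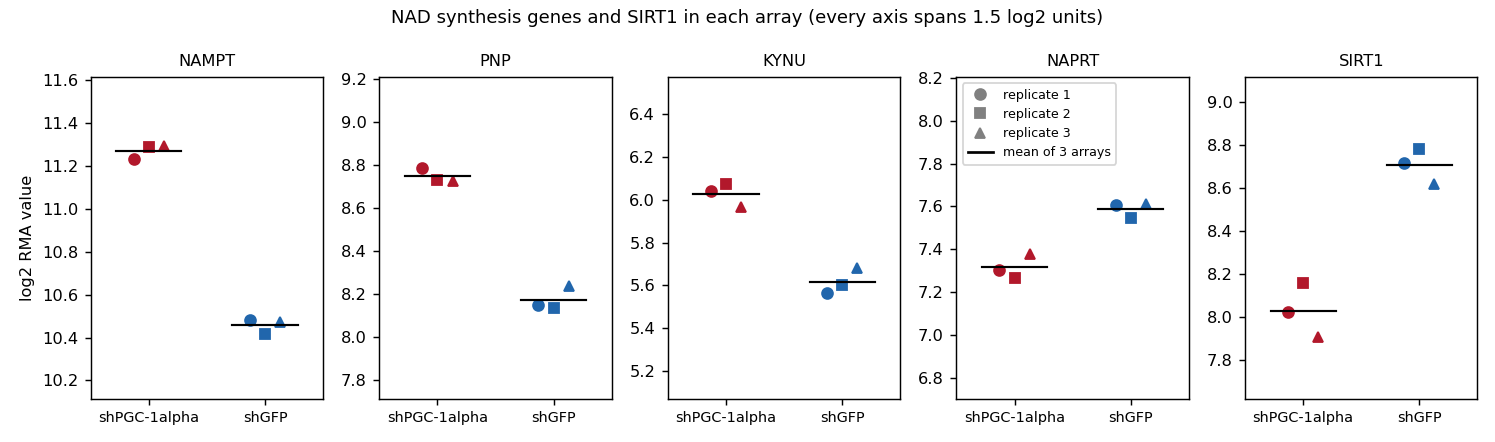
Log2 RMA values of NAMPT, PNP, KYNU, NAPRT and SIRT1 (brightest probe set of each) in each array, with shPGC-1alpha arrays (red) left of shGFP arrays (blue), a marker shape per replicate number and a line at each mean of 3 arrays. NAMPT lies between 11.23 and 11.29 in shPGC-1alpha arrays, against 10.42 to 10.48 in shGFP arrays, and SIRT1 between 7.91 and 8.16, against 8.62 to 8.78.

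Set against all genes, the 3 higher genes lay at or above the 94.5th percentile of differences and the 2 lower genes at the 14.3rd percentile or below. The median difference over all genes was -0.016.

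**Figure D2:**
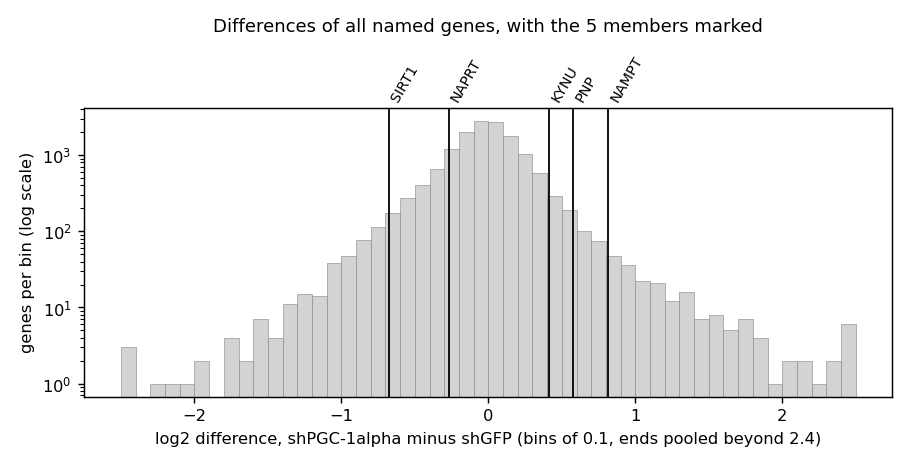
Histogram of the log2 differences (shPGC-1alpha minus shGFP) of the 14884 named genes, on a log scale of genes per bin, with lines at the 5 genes. NAMPT at 0.81, PNP at 0.58 and KYNU at 0.41 lie on the right shoulder, SIRT1 at -0.68 and NAPRT at -0.27 on the left.

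The array carries more than 1 probe set for NAMPT and PNP, and the values above come from the brightest. The second NAMPT probe set had 7.44, 7.34 and 6.88 in shPGC-1alpha cells, against 6.67, 6.43 and 6.37 in shGFP cells, and its difference was 0.73, as given above. These groups did not overlap either, although the spread was wider than in the brightest probe set. The third NAMPT probe set had 6.12, 5.61 and 4.91 in shPGC-1alpha cells, against 4.82, 5.25 and 5.25 in shGFP cells. Here the groups overlapped, and shPGC-1alpha replicate 3 lay below shGFP replicates 2 and 3. The place of this probe set is unclear too. Of the 20 named probe sets numbered next to it, 1 belonged to a gene of chromosome 7 and 5 to genes of chromosome 4, the most common. The second PNP probe set had 5.80, 5.27 and 5.29 in shPGC-1alpha cells, against 4.87, 5.11 and 4.84 in shGFP cells, a difference of 0.52 without overlap. With the mean of its probe sets, which includes the brightest and the third, NAMPT differed by 0.66. RefSeq lists 3 pseudogenes of NAMPT, 3 of KYNU and 1 of PNP. Their sequences were not compared with the genes, and signal from such copies cannot be told apart from that of the gene here. For the KYNU probe set, all 20 neighbours by number belonged to genes of its own chromosome 2. For PNP, 12 of 20 neighbours of the brightest probe set and all 20 of the second belonged to genes of its own chromosome 14.

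**Figure D3:**
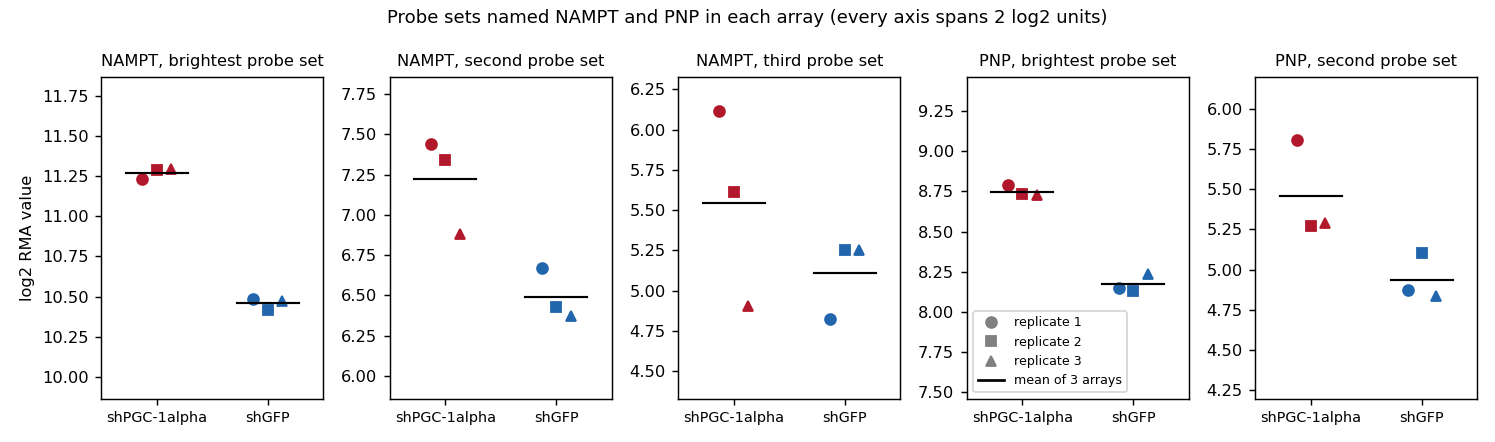
Log2 RMA values of the 3 probe sets named NAMPT and the 2 named PNP, with shPGC-1alpha arrays (red) left of shGFP arrays (blue) and a line at each mean of 3 arrays. The groups overlap in the third NAMPT probe set, which runs from 4.91 to 6.12 in shPGC-1alpha arrays, against 4.82 to 5.25 in shGFP arrays.

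The promoters are shown because NAMPT, PNP and KYNU were higher in the same cells in which SIRT1 was lower. Each line gives the 250 bases before a RefSeq start of the gene (GRCh38.p14), 5′ to 3′ on the gene's strand. For NAMPT that start lies inside the gene bounds given above, so its window does too. Capitals mark exact matches, on either strand, to the E-box CACGTG bound by clock and MYC factors, the hypoxia response core ACGTG, the nuclear receptor core AAGGTCA used by the PGC-1alpha partner ERR alpha, the NRF1 core GCATGCG, the cyclic AMP response core TGACG, the box CCAAT, the TATA box TATAAA and the kappa-B motif, named only because it has variable letters. The GC box GGGCGG was searched as well and left in lower case. NAPRT is not shown.
NAMPT (chr7:106284984-106285233, minus strand): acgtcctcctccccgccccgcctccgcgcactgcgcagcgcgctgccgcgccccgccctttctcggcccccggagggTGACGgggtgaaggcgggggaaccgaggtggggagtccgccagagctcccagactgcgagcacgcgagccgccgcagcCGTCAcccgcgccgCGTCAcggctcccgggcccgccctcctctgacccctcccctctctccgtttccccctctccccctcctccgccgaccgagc
PNP (chr14:20469156-20469405, plus strand): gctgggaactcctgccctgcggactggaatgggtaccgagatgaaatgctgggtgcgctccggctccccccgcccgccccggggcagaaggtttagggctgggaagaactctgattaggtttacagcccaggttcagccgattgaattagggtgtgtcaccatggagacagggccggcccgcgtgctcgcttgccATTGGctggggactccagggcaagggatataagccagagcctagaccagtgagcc
KYNU (chr2:142877414-142877663, plus strand): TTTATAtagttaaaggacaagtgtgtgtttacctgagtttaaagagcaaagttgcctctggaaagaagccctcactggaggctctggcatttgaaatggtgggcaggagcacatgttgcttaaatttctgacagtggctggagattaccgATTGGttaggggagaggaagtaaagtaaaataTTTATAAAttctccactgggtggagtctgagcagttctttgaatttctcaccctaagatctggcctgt
SIRT1 (chr10:67884406-67884655, plus strand): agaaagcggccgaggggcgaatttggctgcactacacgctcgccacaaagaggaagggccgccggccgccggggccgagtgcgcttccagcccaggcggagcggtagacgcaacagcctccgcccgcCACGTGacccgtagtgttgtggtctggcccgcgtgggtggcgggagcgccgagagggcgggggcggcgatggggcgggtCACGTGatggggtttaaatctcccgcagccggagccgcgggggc
The SIRT1 window held 2 E-boxes, which begin at positions -123 and -44 relative to the start, and its hypoxia cores are the letters inside those E-boxes. An E-box was found in 6.3% of 34788 RefSeq windows of this length. NAMPT held 3 cyclic AMP response cores, a motif found in 21.2% of windows, and no E-box. PNP and KYNU held 1 CCAAT match each (32.0% of windows), and KYNU held 3 TATA box matches (10.8% of windows), of which 2 overlap each other on opposite strands. GC boxes numbered 3 in NAMPT, 2 in PNP and 4 in SIRT1 (42.6% of windows). KYNU had 0 GC boxes. The kappa-B motif (10.0% of windows), the NRF1 core (3.3%) and the nuclear receptor core (3.4%) had no match in these 4 windows. A match is a run of letters and not a measured binding site.

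Of 17 listed synthesis genes 12 were measured, and 3 were higher and 1 lower past the threshold in limma, against 21.8% of all genes called, with a median log2 difference of -0.05. These 4 are NAMPT, PNP, KYNU and NAPRT, chosen for their difference, so nothing is read from this count or from the 0 calls among the other 8 (0 also at an unadjusted p under 0.05). QPRT, which joins quinolinate to phosphoribosyl pyrophosphate at the end of the tryptophan route, had 11.00, 10.89 and 10.96 in shPGC-1alpha cells, against 10.94, 10.84 and 10.93 in shGFP cells. These ranges overlap, and the difference was 0.04 (SE 0.07). The nucleotide transferases that complete NAD or its acid form were at 0.10 (NMNAT1, SE 0.08), -0.07 (NMNAT2, SE 0.14) and -0.22 (NMNAT3, SE 0.12). Without shGFP replicate 3, NMNAT3 passed with a limma adjusted p of 0.0353, and its adjusted p ran up to 0.504 over the alternatives. NADSYN1, which amidates the acid form to NAD, was at -0.07 (SE 0.06), and all 3 of its shPGC-1alpha arrays lay below the shGFP arrays by a margin that did not pass. The riboside kinase NMRK2, the formamidase AFMID and the hydroxylase KMO were at -0.04, -0.06 and -0.25, and KMO had an SE of 0.23.

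The genes for NAD kinases and for the transhydrogenase that reduces NADP changed in both directions. All 3 of 3 measured genes passed in limma, against 21.8% of all genes. NADK2, the mitochondrial NAD kinase, had 6.95, 6.93 and 6.92 in shPGC-1alpha cells, against 8.15, 8.04 and 8.004 in shGFP cells. The groups were separated by more than 1 log2 unit, and NADK2 fell by 1.13 (SE 0.07, limma adjusted p 8.07e-05), or 2.19-fold. NNT, the inner-membrane transhydrogenase that passes hydride from NADH to NADP, had 8.65, 8.52 and 8.64 in shPGC-1alpha cells, against 9.13, 9.19 and 9.17 in shGFP cells, and fell by 0.56 (SE 0.07, limma adjusted p 0.00128). NADK, the cytosolic NAD kinase, had 8.003, 7.97 and 8.02 in shPGC-1alpha cells, against 7.78, 7.71 and 7.70 in shGFP cells, and rose by 0.27 (SE 0.06, limma adjusted p 0.0178). The genes for both mitochondrial enzymes were lower in every shPGC-1alpha array than in any shGFP array, and that for the cytosolic kinase was higher. The call of NADK was lost without shPGC-1alpha replicate 1 or 3 or shGFP replicate 2 or 3 and when all probe sets were fitted, with adjusted p between 0.00317 and 0.0846 over the alternatives.

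Enzymes that draw nicotinamide or kynurenine away from NAD were measured for 4 of 7 listed genes, of which 1 rose and 1 fell, against 21.8% of all genes called, with a median of -0.02. AOX1, an aldehyde oxidase that also oxidises methylnicotinamide, had 6.28, 6.57 and 6.32 in shPGC-1alpha cells, against 5.01, 4.86 and 4.86 in shGFP cells. It rose by 1.48 (SE 0.10, limma adjusted p 0.000137), or 2.79-fold. NNMT, which methylates nicotinamide in the step before AOX1, was at 0.04 (SE 0.06), with 8.37, 8.34 and 8.34 in shPGC-1alpha cells, against 8.34, 8.28 and 8.30 in shGFP cells. The aminotransferase AADAT, which makes kynurenic acid from kynurenine, fell by 0.34 (SE 0.07, limma adjusted p 0.0112; 0.0565 when all probe sets were fitted), and the decarboxylase ACMSD was at -0.08 (SE 0.07).

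**Figure D4:**
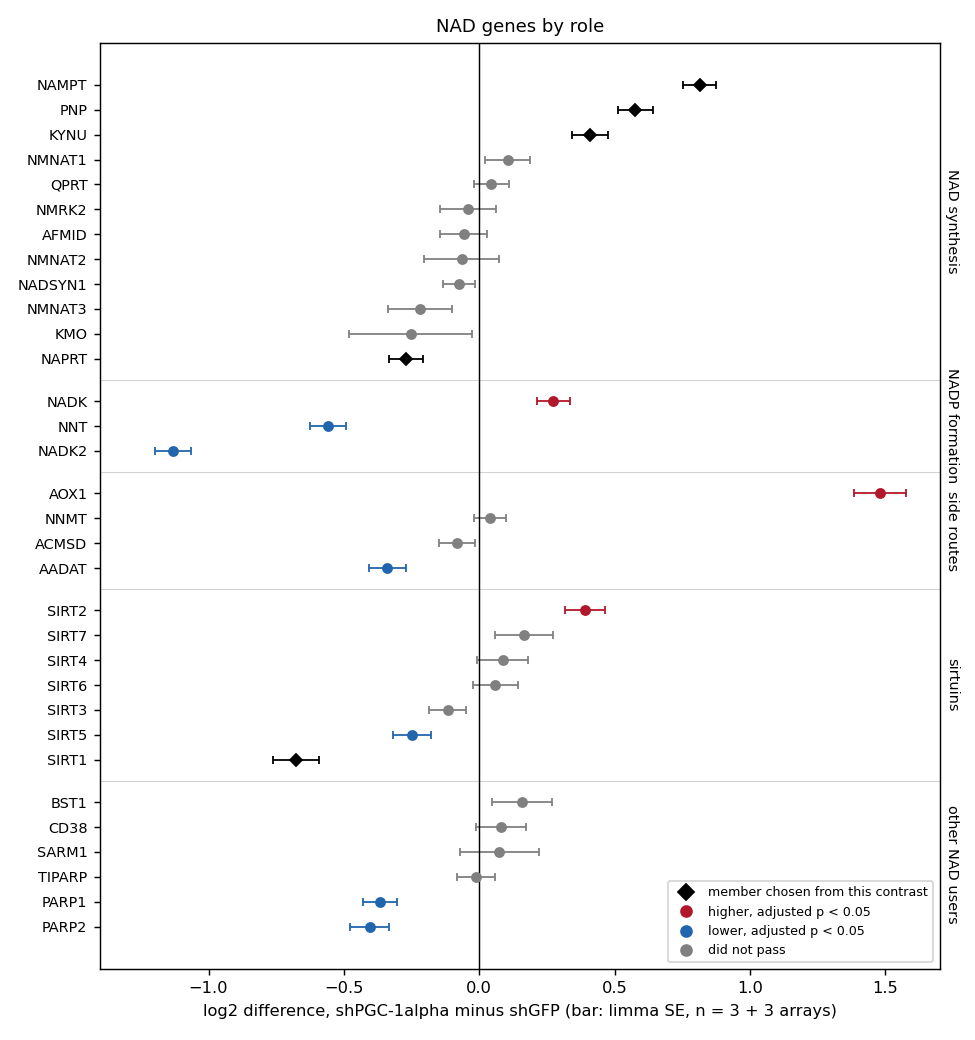
Log2 differences (shPGC-1alpha minus shGFP) with limma SE bars for measured genes of NAD synthesis, NADP formation, side routes, sirtuins and other NAD users, from 3 arrays per group. Black diamonds are the 5 genes chosen from this contrast, red and blue circles are other genes that passed higher and lower, and NADK2 at -1.13 and AOX1 at 1.48 lie farthest from 0.

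All 7 sirtuin genes were measured. SIRT1 had the largest difference in size among them, but it was chosen from this contrast, so nothing is read from its rank. Of the other 6, 1 rose and 1 fell, against 21.8% of all genes called, with a median of 0.07. SIRT2, a mainly cytoplasmic deacetylase, had 7.69, 7.82 and 7.90 in shPGC-1alpha cells, against 7.42, 7.43 and 7.39 in shGFP cells, and rose by 0.39 (SE 0.07, limma adjusted p 0.00933). SIRT5, the mitochondrial desuccinylase, had 6.44, 6.40 and 6.46 in shPGC-1alpha cells, against 6.68, 6.77 and 6.60 in shGFP cells, and fell by 0.25 (SE 0.07, limma adjusted p 0.0412). This call was lost without any 1 of the 6 arrays, under median centring, under quantile normalisation of the genes, with the replicate block and when all probe sets were fitted, with adjusted p between 0.0242 and 0.146 over the alternatives. The main mitochondrial deacetylase SIRT3 was at -0.12 (SE 0.07), SIRT4 at 0.09 (SE 0.10), and the nuclear SIRT6 and SIRT7 at 0.06 (SE 0.08) and 0.17 (SE 0.11). The groups overlapped for these 4 genes.

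**Figure D5:**
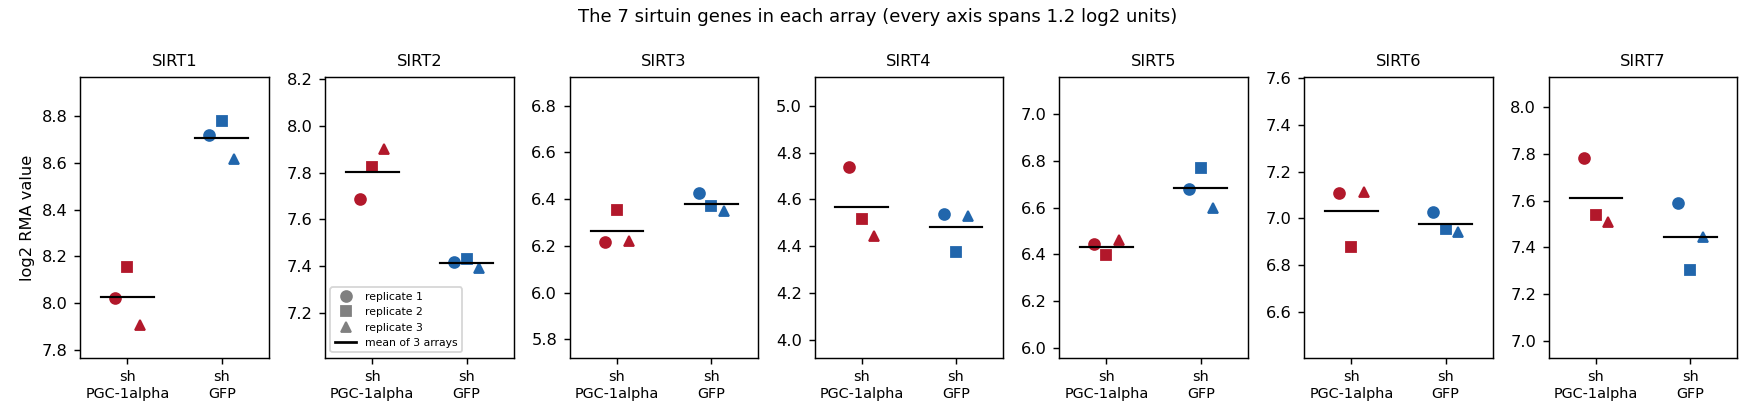
Log2 RMA values of the 7 sirtuin genes in each array, with shPGC-1alpha arrays (red) left of shGFP arrays (blue) and a line at each mean of 3 arrays. SIRT1 and SIRT5 lie lower and SIRT2 higher in all 3 shPGC-1alpha arrays, and the groups overlap for SIRT3, SIRT4, SIRT6 and SIRT7.

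Of 19 other genes whose products split NAD 6 were measured, and 0 rose and 2 fell, against 12.2% of all genes lower, with a median of 0.03. PARP1, the main polymerase that builds poly(ADP-ribose) at DNA breaks, had 9.04, 9.10 and 9.04 in shPGC-1alpha cells, against 9.48, 9.44 and 9.37 in shGFP cells, and fell by 0.37 (SE 0.06, limma adjusted p 0.00652). PARP2, its partner in DNA repair, had 8.52, 8.39 and 8.32 in shPGC-1alpha cells, against 8.81, 8.84 and 8.79 in shGFP cells, and fell by 0.40 (SE 0.07, limma adjusted p 0.00686). The NAD glycohydrolase CD38 averaged 4.19 in shPGC-1alpha cells and 4.11 in shGFP cells, below the guide to dim signals. Of 5 genes that remove ADP-ribose 0 passed in limma, against 21.8% of all genes called. At an unadjusted p under 0.05 in limma there was 1, against 4969 of all 14884 genes. OARD1 was at -0.21 (SE 0.07, limma adjusted p 0.0631) and MACROD1 at -0.21 (SE 0.10).

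Of 16 listed genes for transport and outer-surface breakdown of NAD and its precursors 2 were measured, and both rose, against 9.58% of all genes higher. ENPP3, a membrane pyrophosphatase that cuts nucleotides outside the cell, had 8.55, 8.42 and 8.48 in shPGC-1alpha cells, against 6.22, 6.29 and 6.30 in shGFP cells, and rose by 2.21 (SE 0.07, limma adjusted p 8.11e-06). Its relative ENPP1 had 8.32, 8.13 and 8.198 in shPGC-1alpha cells, against 7.74, 7.90 and 7.9998 in shGFP cells, and rose by 0.34 (SE 0.09, limma adjusted p 0.036). The call of ENPP1 held without shGFP replicate 3 and was lost without any other array, with the replicate block and when all probe sets were fitted, with adjusted p between 0.00466 and 0.119 over the alternatives.

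Around PNP, 12 of 16 listed purine salvage genes were measured, of which 2 rose and 2 fell, against 21.8% of all genes called, with a median of -0.04. XDH, which oxidises hypoxanthine and xanthine to urate downstream of PNP, had 5.20, 5.15 and 5.16 in shPGC-1alpha cells, against 3.99, 4.40 and 4.44 in shGFP cells, and rose by 0.89 (SE 0.12, limma adjusted p 0.00227). Its shGFP mean of 4.28 lay below the guide to dim signals. HPRT1, which returns hypoxanthine and guanine to nucleotides, rose by 0.31 (SE 0.06, limma adjusted p 0.012), a call lost when all probe sets were fitted (adjusted p 0.0621 in limma). The deoxycytidine kinase DCK fell by 0.50 (SE 0.07, limma adjusted p 0.00272). PRPS2, which makes the phosphoribosyl pyrophosphate that NAMPT and NAPRT consume, fell by 0.30 (SE 0.07, limma adjusted p 0.0175). The call of PRPS2 was lost without shPGC-1alpha replicate 3, shGFP replicate 2 or shGFP replicate 3 and when all probe sets were fitted, with adjusted p between 0.000251 and 0.079 over the alternatives. ADA, which feeds inosine to PNP, was at -0.06 (SE 0.06).

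Among regulators and substrates of SIRT1, 16 of 22 were measured, of which 2 rose and 4 fell, against 9.58% of all genes higher and 12.2% lower, with a median of -0.15. The acetyltransferase KAT2B rose by 0.70 (SE 0.08, limma adjusted p 0.000889), with 6.71, 6.68 and 6.55 in shPGC-1alpha cells, against 6.0003, 5.99 and 5.86 in shGFP cells. RPS19BP1, whose product is an activator of SIRT1, rose by 0.31 (SE 0.07, limma adjusted p 0.0182). The deubiquitinase USP22 fell by 0.49 (SE 0.06, limma adjusted p 0.00139), with 10.07, 10.02 and 10.02 in shPGC-1alpha cells, against 10.56, 10.54 and 10.50 in shGFP cells. The cell cycle factor E2F1 fell by 0.37 (limma adjusted p 0.011), the DNA repair subunit XRCC6 by 0.29 (limma adjusted p 0.0123) and the SUMO protease SENP1 by 0.27 (limma adjusted p 0.0255). The call of RPS19BP1 was lost without shPGC-1alpha replicate 2 or 3 or shGFP replicate 1 or 3, and that of SENP1 without any array but shPGC-1alpha replicate 1, under median centring (limma adjusted p 0.0509) and with the replicate block (0.0519). With an array left out, limma adjusted p reached 0.0647 for RPS19BP1 and 0.0823 for SENP1. When all probe sets were fitted both calls were lost (limma adjusted p 0.0798 and 0.106), as were those of E2F1 (limma adjusted p 0.0532) and XRCC6 (limma adjusted p 0.0656).

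Clock genes are listed because CLOCK and BMAL1 are known to drive NAMPT transcription. Of 21 listed 12 were measured, of which 3 rose and 5 fell, against 9.58% of all genes higher and 12.2% lower, with a median of -0.13. BMAL1 had 7.26, 7.29 and 7.19 in shPGC-1alpha cells, against 6.87, 6.77 and 6.87 in shGFP cells, and rose by 0.41 (SE 0.07, limma adjusted p 0.0045). CLOCK, its partner, had 9.29, 9.28 and 9.10 in shPGC-1alpha cells, against 9.74, 9.68 and 9.57 in shGFP cells, and fell by 0.44 (SE 0.08, limma adjusted p 0.00852). The repressors CRY2 and PER2 rose by 0.43 and 0.42 (SE 0.08 each), with limma adjusted p of 0.0072 and 0.00815. The clock output factor DBP fell by 0.69 (SE 0.08, limma adjusted p 0.00124), with 7.03, 7.02 and 7.07 in shPGC-1alpha cells, against 7.75, 7.85 and 7.59 in shGFP cells. HLF, of the same family, fell by 0.81 (SE 0.16, limma adjusted p 0.0114). The other genes counted as lower, NPAS2 and PER3, lost their calls without any array but shPGC-1alpha replicate 2 (NPAS2, limma adjusted p up to 0.0911) and without any 1 of the 6 arrays (PER3, up to 0.113). Both calls were also lost with the replicate block (0.055 for NPAS2 and 0.0793 for PER3 in limma), under median centring (0.0626 and 0.105), under quantile normalisation (0.0615 and 0.063) and when all probe sets were fitted (0.112 and 0.157).

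NF-kB genes are listed because inflammatory signals are known to raise NAMPT and KYNU. Of 12 listed 7 were measured, of which 4 rose and 0 fell, against 9.58% of all genes higher and 12.2% lower, with a median of 0.30. TNIP1, an inhibitor of the pathway, had 9.36, 9.26 and 9.44 in shPGC-1alpha cells, against 8.25, 8.13 and 8.25 in shGFP cells, and rose by 1.14 (SE 0.08, limma adjusted p 0.00014). The subunit REL rose by 0.30 (SE 0.09, limma adjusted p 0.0473), a call lost without any array but shGFP replicate 1, with the replicate block (0.0564) and when all probe sets were fitted (0.148), with adjusted p between 0.00748 and 0.148 over the alternatives. The subunit genes NFKB1 and NFKB2 rose by 0.80 and 0.77 (SE 0.07 each). The subunit RELA, which SIRT1 is known to deacetylate, had 9.06, 9.01 and 8.95 in shPGC-1alpha cells, against 9.08, 8.98 and 9.14 in shGFP cells, and these ranges overlap.

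MicroRNA genes reported to act on SIRT1 or NAMPT were measured as gene transcripts, which need not follow the mature microRNA. Of 16 listed 14 were measured, and 5 of these averaged above the guide to dim signals. MIR181B2 was the 1 gene that fell and 0 rose, against 21.8% of all genes called, with a median of -0.08. The mature sequences of MIR181B2, its neighbour MIR181A2 and MIR34A, a known regulator of SIRT1, are given 5′ to 3′ from RefSeq (GRCh38.p14), with the seed, bases 2 to 8, in capitals.
hsa-miR-181b-5p (from MIR181B2): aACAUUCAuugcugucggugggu
hsa-miR-181a-5p (from MIR181A2): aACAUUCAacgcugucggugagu
hsa-miR-34a-5p (from MIR34A): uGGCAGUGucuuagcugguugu
The miR-181 pair shares a seed, and miR-34a has another. MIR181B2 had 5.78, 5.60 and 5.29 in shPGC-1alpha cells, against 6.85, 6.23 and 6.30 in shGFP cells, and fell by 0.90 (SE 0.19, limma adjusted p 0.0139), a call lost when all probe sets were fitted (adjusted p 0.0515 in limma). MIR181A2, which lies beside it on chromosome 9, had 4.16, 4.28 and 4.12 in shPGC-1alpha cells, against 5.73, 4.17 and 4.72 in shGFP cells. Its groups overlapped, with shGFP replicate 1 far above the rest. The other listed genes of miR-181b and miR-181a, MIR181B1 and MIR181A1, did not pass. MIR181B1, brighter than MIR181B2, averaged 6.83 in shPGC-1alpha cells and 6.97 in shGFP cells, a difference of -0.14 (SE 0.07, limma adjusted p 0.226). MIR181A1 was at 0.04 (SE 0.15), below the guide to dim signals in both groups. MIR34A had 3.85, 3.67 and 4.03 in shPGC-1alpha cells, against 4.14, 4.09 and 4.46 in shGFP cells, below the guide in both groups apart from shGFP replicate 3, and did not pass (adjusted p 0.0776 in limma).

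For each of the 5 genes the 3 most alike genes were found among 11719 other protein-coding genes, as those with the smallest root mean square difference between mean-centred log2 values over the 6 arrays. NAMPT was closest to the kinase RIOK3 (0.034), the lysosomal protein GPR137B (0.039) and the focal adhesion protein TNS1 (0.040), whose own differences were 0.79, 0.78 and 0.87. PNP was closest to the lysosomal protease CTSB (0.027), the semaphorin receptor NRP2 (0.028) and DDIT4 (0.031), a restraint on mTORC1. KYNU was closest to DENND5B (0.022), RIN2 (0.027) and CDV3 (0.030). The genes closest to NAPRT included the cell cycle kinase CDK2 (0.021) and the GATOR2 subunit WDR59 (0.023). SIRT1 was closest to the splicing factor SRSF1 (0.042), WDR31 (0.043) and the deubiquitinase USP25 (0.046), with differences of -0.66, -0.65 and -0.65. Such likeness was not rare: 104 genes lay within 0.1 of NAMPT, 304 of PNP, 644 of KYNU, 1375 of NAPRT and 120 of SIRT1. Among the 5 genes themselves the closest pair was PNP and KYNU, at 0.090, and the farthest was NAMPT and SIRT1, at 0.75. The 6 arrays are 2 groups of 3, so these distances mostly carry the difference between the groups.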

How the data were processed

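Total RNA from HK2 cells was biotin labelled and read on 6 Affymetrix arrays, 3 per group. The authors deposited log2 expression values for 53617 probe sets, and per the submitters' processing notes they used RMA and Affymetrix Expression Console, with versions not given in the sources used here. Values ran from 0.66 to 13.8 and were used as deposited. Quantile normalisation reduces a change shared by most transcripts. RMA values carry no counts, so the number of arrays limits the precision.

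Probe sets were named through the platform annotation and RefSeq (GRCh38.p14): 16098 had 1 gene, 0 several and 37519 none. The brightest probe set by mean over the 6 arrays stood for each of 14884 genes. The sample titles gave the groups and the replicate numbers. The arrays differed, with at most 119 identical values between any pair. limma 3.58.1 under R 4.3.3, with lmFit and eBayes at default settings and no block, compared shPGC-1alpha with shGFP, with Benjamini-Hochberg adjustment over all genes and a threshold of 0.05, and was tested on simulated data. An exact permutation test of 3 arrays against 3 cannot go below a p of 0.1.

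The 5 genes and the gene lists were chosen with earlier results of these data known. Named are the 5 genes, all measured members of the NAD synthesis, NADP formation, side route and sirtuin lists, and in other lists up to 6 members with the smallest p past the threshold, or 2 where none passed. Other genes named, such as CD38, ADA, RELA, MIR181A2, MIR34A and the cell type markers, were chosen after their values were seen. Alternatives were each array left out, the replicate block, a filter on dim genes, the mean of probe sets, all probe sets fitted, median centring, quantile normalisation, eBayes with trend and robust, and array weights. The chromosomes of the 10 named probe sets numbered on each side of a probe set were taken from RefSeq, a comparison added after the values were seen. Scanner files and scan dates were not analysed here. One of the genes most alike to NAPRT is not reported here.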

Additional observations from a re-analysis of the deposited data

How the results depend on the processing

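The differences of the 5 genes kept their direction under all 14 alternatives. They ran over the left-out arrays from 0.79 to 0.83 for NAMPT, 0.56 to 0.61 for PNP, 0.39 to 0.44 for KYNU, -0.30 to -0.25 for NAPRT and -0.74 to -0.62 for SIRT1. NAMPT was 0.66 with the mean of its probe sets, 0.87 under median centring and 0.77 under quantile normalisation, and median centring gave PNP 0.63 and NAPRT -0.22. The 3 higher genes passed in every alternative, and the 2 lower ones numbered 1 under median centring, when all probe sets were fitted, and at the lowest of the range of 1 to 2 with an array left out. Over all genes, 1426 were higher and 1817 lower, with 1011 to 1170 and 1301 to 1502 when an array was left out and 767 and 970 among these genes when all 53617 probe sets were fitted. Median centring gave 1867 higher and 1440 lower, the opposite balance. The fit of all probe sets also gave 0 higher genes of NADP formation, 1 higher gene of outer-surface breakdown, 1 higher and 1 lower of purine salvage, 1 higher and 1 lower among SIRT1 regulators, 3 lower clock genes, and 0 lower side-route genes, sirtuins other than SIRT1 and microRNA genes. Replicate numbers are shared between the groups, and same-numbered arrays deviated together weakly (correlations of 0.12, 0.087 and 0.023). Each of these was the highest for both of its arrays, and correlations between arrays of unlike number ran from -0.12 to 0.057. The labels do not say if same-numbered arrays are pairs. The main fit took no pairs, and the replicate block was an alternative. With the replicate block, 1 outer-surface gene and 3 NF-kB genes (4 without the block) were higher, and 0 sirtuins other than SIRT1, 3 clock genes and 2 microRNA genes were lower. Median centring and quantile normalisation each gave 0 lower sirtuins other than SIRT1 and 3 lower clock genes. The filter on dim genes gave 1 lower gene of ADP-ribose removal, and eBayes with trend and robust gave 4 lower genes of purine salvage. With an array left out, the counts ran from 0 to 1 for NADP formation (higher) and NAD synthesis (lower), 1 to 2 for outer-surface breakdown and SIRT1 regulators (higher), 1 to 2 for purine salvage and microRNA genes (lower), 3 to 4 for the clock (lower), and were 0 for lower sirtuins other than SIRT1. The cause of these changes was not tested.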
